A study of Capra hircus with 8 samples.

Results

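Small RNA was sequenced from mammary gland cells of the Lanshan dairy goat grown in 3D culture, and cells overexpressing the circular RNA circRNA28250 were set directly against cells in which it was knocked down. The overexpression cells carried the circRNA gene brought in by virus, in 2 libraries, and the knockdown cells had its expression inhibited, in 2 libraries labelled cKDmix. The labels do not say what the mix holds, nor whether a group's 2 libraries stand for separate cultures, and p-values therefore measure the spread between libraries alone, possibly a technical one. The 2 other groups of the study, named 3NC and 5NC in the labels and read here as negative controls with 2 libraries each, were not part of the contrast. Their levels are given as a range, and they also entered the filter on low counts, the scaling and the estimate of the spread. All 4 groups shared the tissue, the strain and the 3D culture. The features compared were the known mature miRNAs, that is the rows of the deposited table that bear a goat miRNA name and are not marked as hairpin: 317 of 5093 features, in 4 of 8 libraries. The prefix chi- is left out of their names. Of the 317, 39 had no read in any of the 4 libraries, 154 had reads in all 4, and 224 passed the filter on low counts and were tested. The 93 that did not pass reached at most 43 reads in any of the 4 libraries. The level of circRNA28250 itself is not read in a table of small RNA counts, so the group labels could not be checked against it.

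A miRNA gene is transcribed into a hairpin, from which a short duplex is cut with a 5p strand and a 3p strand, named for the arm of the hairpin they come from. Usually the guide strand of the duplex is kept by an Argonaute protein and pairs through its seed, near its 5′ end, with messenger RNAs, while the passenger strand is mostly degraded. Circular RNAs are closed loops made by back-splicing, and some of them hold sites to which miRNAs bind, which is why small RNA is read after a circular RNA is raised or lowered. In the mammary gland, let-7 accompanies epithelial differentiation, the miR-200 family marks epithelial cells, and miR-143, miR-145 and miR-199 mark fibroblasts and smooth muscle.

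The libraries differed in how much miRNA they held. Mature miRNAs took 26% of the 12459225 reads of overexpression library 1 and 2.79% of the 6889730 reads of overexpression library 2, against 1.59% of 6588354 and 0.194% of 32066029 reads in knockdown libraries 1 and 2, and 10.8% to 17.9% in the 3NC and 5NC libraries. This left 3240968 and 192020 mature reads under overexpression, against 104638 and 62292 under knockdown. Features annotated as rRNA held 27.3% of knockdown library 1 and features called piRNA 43.9% of knockdown library 2, against at most 5.21% and 0.0846% in the overexpression libraries. The part of this imbalance in the results that follow was not tested. Levels are given as CPM, reads scaled to a total of 1000000 known and predicted miRNA reads after TMM scaling, which corrects for the few miRNAs that take most of a library. CPM has no length term, and mature miRNAs are of about the same length. A count of 3 reads, taken as the floor, corresponds to 1.37 and 8.32 CPM in overexpression libraries 1 and 2, against 10.7 and 12.9 CPM in knockdown libraries 1 and 2. Reads carry no molecular identifiers and are not independent molecules, so floors and intervals describe counting error alone.

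The 4 libraries led with different miRNAs. let-7b-5p held 29.3% of the mature reads of overexpression library 1 and miR-222-3p 16.3% of those of overexpression library 2, while miR-21-5p held 29.9% in knockdown library 1 and let-7b-5p 7.88% in knockdown library 2. The 10 most abundant mature miRNAs together took 79.3% and 65.5% of the mature reads under overexpression, against 59.0% and 51.3% with knockdown. Across the 224 tested miRNAs, log2 levels ranked alike at a Spearman rho of 0.81 between the 2 overexpression libraries and 0.76 between the 2 knockdown libraries, and at 0.69, 0.65, 0.73 and 0.80 in the 4 pairs of an overexpression with a knockdown library. Overexpression library 2 was ranked about as much like knockdown library 2 as like its own partner. The median absolute log2 difference of a miRNA was 1.51 between the overexpression libraries and 1.42 between the knockdown libraries, and 1.69 to 2.16 across the groups. These points share their libraries and their depth, so they are given as a description.

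No mature miRNA differed between overexpression and knockdown at an adjusted p under 0.05 in edgeR's quasi-likelihood test, where the lowest Benjamini-Hochberg adjusted p was 0.51 over 358 known and predicted miRNAs (background called 0%). At an unadjusted p under 0.05 there were 15 of 224 mature miRNAs (6.7%), 13 higher and 2 lower with overexpression, beside 32 of all 358 (8.94%). DESeq2 called 4 of the 358 (1.12%), of which 3 were mature miRNAs: let-7b-3p and miR-767, higher with overexpression, and miR-129-3p, lower. The median log2 fold change, overexpression over knockdown, was 0.06, the quartiles were -1.92 and 1.80, and 115 miRNAs were higher and 109 lower. The spread between libraries was wide, with a biological coefficient of variation of 1.28 in the edgeR fit. With 2 libraries against 2, an exact permutation test of 1 miRNA cannot give a p below 0.333, so none was run.

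Given library by library, 58 of the 224 miRNAs (25.9%) had both overexpression libraries above both knockdown libraries, 45 (20.1%) had both below, and in 121 the groups overlapped. These shares are the background for every list that follows. Leaving out any 1 of the 4 libraries gives fewer values to separate, and then 75 to 92 miRNAs did not overlap in the upward and 75 to 84 in the downward direction. Of the 58 that were higher, 25 had both knockdown libraries below all 4 of the 3NC and 5NC libraries and 5 had both overexpression libraries above all 4. In 3 of the 25 both overexpression libraries were below all 4 as well, and in 30 of the 58 neither group lay beyond the 4. Of the 45 that were lower, 16 had both knockdown libraries above the 4 and 6 had both overexpression libraries below them. In 23 of the 45 neither group lay beyond the 4. In the 121 with overlap, the knockdown libraries alone were below the 4 in 11 and above in 9. The overexpression libraries alone were above in 5 and below in 3. Both groups were above in 1 and below in 1, and neither lay beyond in 91.

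**Figure D1:**
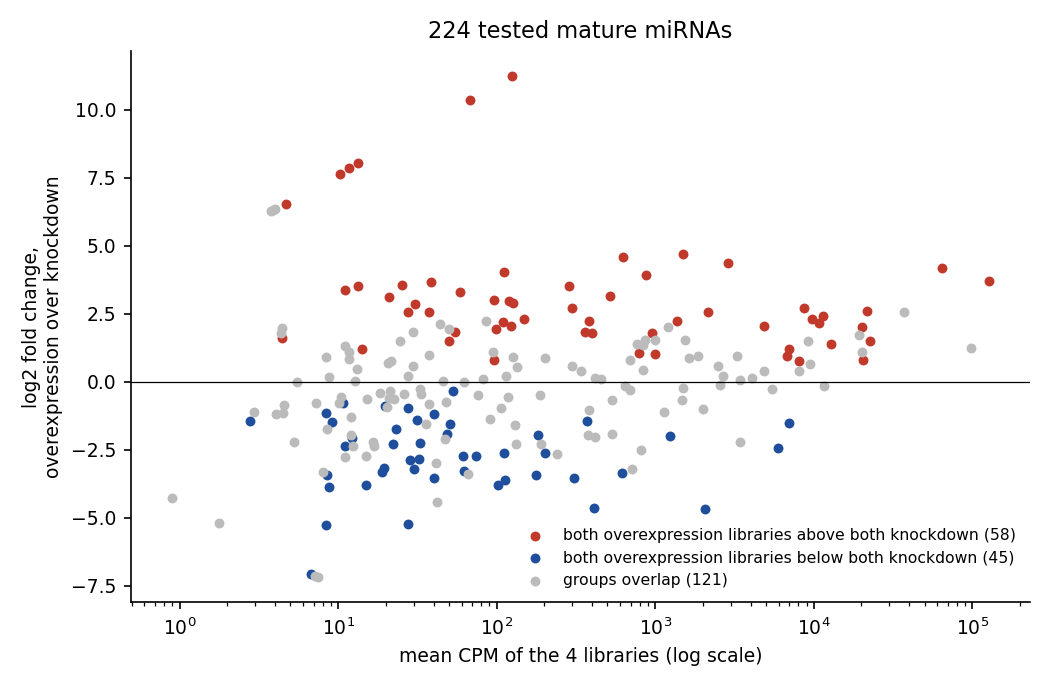
Each point is 1 of 224 tested mature miRNAs, with its mean CPM over the 4 libraries on a log axis and its log2 fold change, overexpression over knockdown, on the vertical axis. The 58 miRNAs whose overexpression libraries both lie above the knockdown libraries and the 45 whose libraries lie below are spread over the whole range of levels, and fitted values above 6 or below -6 belong to miRNAs with no read in both libraries of a group or in 3 of the 4 libraries.

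The direction of most differences depended on how the libraries were put on 1 scale. Scaled to the miRNA total of each library without a composition factor, the median log2 fold change was -1.52, and 27 miRNAs (12.1%) did not overlap upward and 84 (37.5%) downward. Scaled to the total of the named small RNAs of every class (named-RNA totals), the median was 2.01, and 86 (38.4%) did not overlap upward and 7 (3.12%) downward. DESeq2's size factors gave a median of -0.16, with 54 (24.1%) upward and 51 (22.8%) downward. In all 4 scalings alike, 27 miRNAs (12.1%) stayed higher with overexpression and 7 (3.12%) stayed lower. The 7 were miR-129-3p, miR-200b, miR-30c-5p, miR-338-5p, miR-365-3p, miR-433 and miR-582-5p. A direction given below is on the TMM scale, and the other scalings are given beside list medians and beside miRNAs without overlap where they turn the log2 fold change.

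**Figure D2:**
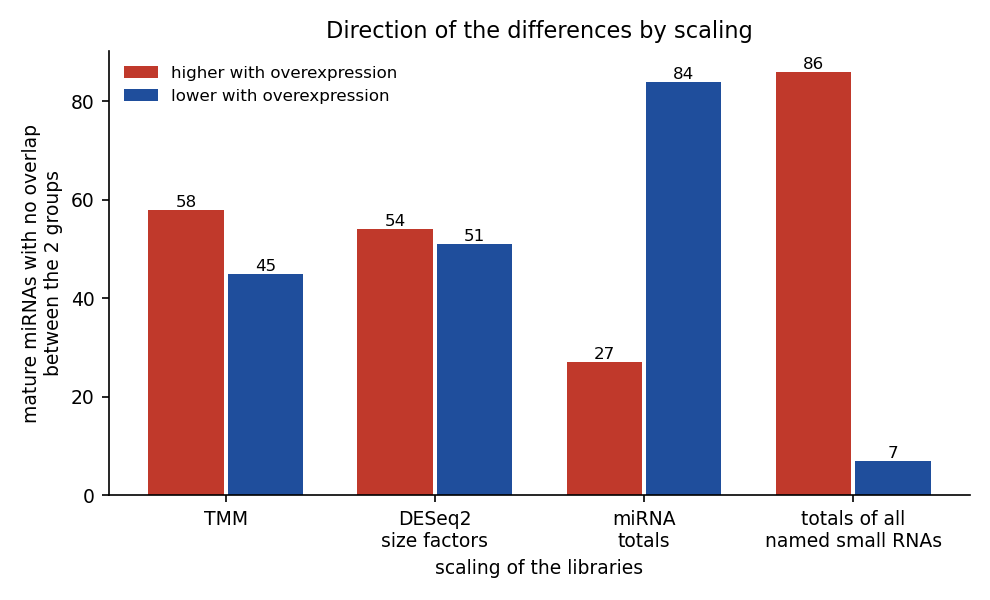
Bars count the mature miRNAs, of 224 tested, whose 2 overexpression libraries lie both above or both below the 2 knockdown libraries under 4 scalings of the libraries. The count of higher miRNAs runs from 27 with miRNA totals to 86 with named-RNA totals, and the count of lower ones from 84 to 7.

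The let-7 family, which restrains growth regulators such as RAS, HMGA2 and LIN28, was the most abundant family in overexpression library 1. Its members summed to 625263 and 59679 CPM in the overexpression libraries, against 57292 and 46366 CPM in the knockdown libraries and 222112 to 382703 CPM in the 3NC and 5NC libraries. Overexpression library 1 stood alone at the top, and library 2 was close to the knockdown libraries. Of 15 tested let-7 strands, none passed the edgeR test, 12 were higher and 3 lower, 5 did not overlap upward and none downward, and the median log2 fold change was 0.88, beside 0.06 over all tested miRNAs. With miRNA totals the family's median was -0.94. The 5 without overlap were let-7b-5p and the 3p strands let-7a-3p, let-7b-3p, let-7d-3p and let-7e-3p.

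let-7b-5p, the guide strand of let-7b, had 435486 and 37554 CPM in the overexpression libraries, against 14939.8 and 21041 CPM in the knockdown libraries. Both overexpression libraries were above both knockdown libraries, with a log2 fold change of 3.72 ± 1.15 (SE) and an adjusted p of 0.51 in edgeR's test, but overexpression library 1 was far above the 3NC and 5NC range of 98514 to 248354 CPM and library 2 below it. As a share of mature reads, let-7b-5p took 29.3% and 7.05% under overexpression, against 4.0% and 7.88% under knockdown, and on that scale the groups overlapped. With each library left out in turn, the log2 fold change of let-7b-5p ran from 1.06 to 4.20, the highest being without overexpression library 2. let-7b-3p, its passenger strand, had 2642 and 3084 CPM under overexpression, against 46.4 and 176 CPM under knockdown, where the values rest on 13 and 41 reads. All overexpression values were more than 10 times the knockdown values, and the log2 fold change was 4.69 ± 1.12 with an unadjusted p of 0.0029 and an adjusted p of 0.51 in edgeR, 0.035 in DESeq2. All 4 libraries were below the 3NC and 5NC range of 3160.1 to 8327 CPM, the knockdown libraries by far more.

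The make-up of the let-7 guide strands does not depend on the scaling of the libraries. let-7b-5p made up 70.2% and 66.9% of the reads of the 9 let-7 and miR-98 guide strands in the overexpression libraries, against 26.2% and 45.7% in the knockdown libraries. The 2 groups did not overlap, while the 3NC libraries lay at 62.7% and 66.0% and the 5NC libraries at 30.3% and 59.1%, so that 1 of the 5NC libraries fell between the 2 knockdown libraries. All other guide strands but let-7a-5p, that is let-7c-5p to let-7i-5p and miR-98-5p, took a larger share in both knockdown libraries than in either overexpression library. let-7f-5p, for example, made up 1.61% and 1.85% under overexpression, against 9.97% and 5.85% with knockdown. let-7 guide strands differ from each other by few bases, and how the authors assigned reads that match several of them is not given, so single members are uncertain. let-7a-5p had 118218 and 9641 CPM under overexpression, against 9184 and 12126 CPM under knockdown, a log2 fold change of 2.58 ± 1.14 that was -0.14 without overexpression library 1. let-7c-5p likewise had 20821 and 2399 CPM, against 11158 and 3430.4 CPM, with overlapping groups and a log2 fold change of 0.67 ± 1.20 that was -1.60 without overexpression library 1 and -1.15 with miRNA totals.

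miR-221 and miR-222, neighbours that share a seed and target the cell cycle inhibitor p27, differed from each other. miR-222-3p had 155834 and 86869 CPM in the overexpression libraries, against 4449 and 8876 CPM in the knockdown libraries. Both overexpression libraries were far above both knockdown libraries under all 4 scalings, with a log2 fold change of 4.19 ± 1.36 and an adjusted p of 0.51 in edgeR's test. With each library left out in turn, the log2 fold change of miR-222-3p ran from 3.70 to 4.77. 3 of the 3NC and 5NC libraries were near the overexpression level, at up to 167660 CPM, and the other was near the knockdown level, at 6537 CPM. miR-221-3p had 1307 and 469 CPM under overexpression, against 464 and 545 CPM under knockdown. Its groups overlapped and its log2 fold change was 0.82 ± 1.08, which turned to -0.91 with miRNA totals and to -0.11 without overexpression library 1. miR-221-5p, the other strand, had only 11 and 3 reads under overexpression, against 0 and 1 reads under knockdown.

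Of the miR-23, miR-24 and miR-27 clusters, 8 strands were tested, none passed, 7 were higher and 1 lower with overexpression, 5 did not overlap upward and none downward, and the median log2 fold change was 2.29. The median was 0.71 with miRNA totals and 3.86 with named-RNA totals. miR-23b-3p had 23481 and 14880.3 CPM under overexpression, against 3896 and 3267 CPM under knockdown, a log2 fold change of 2.42 ± 0.79. miR-23a had 22407 and 13078 CPM, against 4731 and 3203 CPM, a log2 fold change of 2.16 ± 0.82. For both, the pair of libraries of each group lay close together, the groups did not overlap under any of the 4 scalings, and the knockdown libraries were below the 3NC and 5NC range, which was 20149 to 38407 CPM for miR-23b-3p and 8985 to 14767 CPM for miR-23a. Of their cluster neighbours, the passenger strands miR-23b-5p, miR-27a-5p and miR-27b-5p were also higher without overlap, and the other 3 strands overlapped. miR-27a-3p had 4974 and 749 CPM under overexpression, against 4113 and 832 CPM under knockdown, with overlapping groups. miR-24-3p had 826 and 399 CPM, against 996 and 364 CPM, also with overlapping groups. The passenger strand miR-27a-5p had 361 and 66.6 CPM under overexpression, against 32.1 and 21.4 CPM under knockdown and no overlap, unlike the guide strand of its hairpin.

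The miR-10 superfamily, which takes in miR-99, miR-100 and miR-125, had 12 tested strands, of which none passed, 9 were higher and 3 lower, and 5 did not overlap upward. Its summed level was 63128 and 100104 CPM under overexpression, against 25980.4 and 31084 CPM under knockdown, and its median log2 fold change of 1.16 became -0.65 with miRNA totals. miR-99b-5p, which is encoded beside let-7e, led it with 23617 and 50629 CPM in the overexpression libraries, against 7027 and 5291 CPM in the knockdown libraries. The overexpression libraries were both above the knockdown libraries, overexpression library 2 most, and the log2 fold change was 2.59 ± 0.89 (edgeR adjusted p 0.52). miR-125a-5p had 14672 and 22244 CPM under overexpression, against 5420.3 and 8696 CPM under knockdown, a log2 fold change of 1.39 ± 0.80 that was -0.04 with miRNA totals. miR-99a-5p had 12047 and 8404 CPM, against 7188 and 4717 CPM, a log2 fold change of 0.78 ± 0.90 that turned to -0.75 with miRNA totals.

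3 further miRNAs of middle abundance were higher with overexpression in all 4 scalings and are named for their low p. miR-342-3p had 1646 and 9380.3 CPM in the overexpression libraries, against 204 and 326 CPM in the knockdown libraries, a log2 fold change of 4.38 ± 1.26 (edgeR adjusted p 0.51). Overexpression library 2 was highest and both knockdown libraries were below the 3NC and 5NC range of 985 to 4469.9 CPM. miR-328-3p had 13378 and 16539 CPM under overexpression, against 1796 and 2774 CPM under knockdown, a log2 fold change of 2.71 ± 0.82. Its overexpression libraries lay within the 3NC and 5NC range of 11988 to 17237 CPM and its knockdown libraries below it. miR-151-5p had 8468 and 7098 CPM, against 2221 and 1514 CPM, a log2 fold change of 2.06 ± 0.84, with the overexpression libraries slightly above and the knockdown libraries below the range of 3965 to 7068 CPM.

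Among the other abundant miRNAs, several differed more between the libraries of a group than between the groups. miR-21-5p, raised in many injured or growing tissues, had 265052 and 11416 CPM under overexpression, against 111656 and 5179.9 CPM under knockdown. Library 1 was more than 20 times library 2 in both groups, and the log2 fold change of 1.24 ± 1.57 became -2.36 without overexpression library 1 and -0.59 with miRNA totals. miR-34a, a target of p53, had 55540.1 and 3309 CPM under overexpression, against 11840.4 and 6037 CPM under knockdown, again overlapping, at 1.72 ± 1.59. miR-26a-5p had 45651 and 8912 CPM, against 8930.3 and 16762 CPM, at 1.09 ± 0.97. Without overexpression library 1 the log2 fold changes were -1.43 for miR-34a and -0.53 for miR-26a-5p. miR-204-5p had 22474 and 41878 CPM, against 2678 and 13366 CPM, without overlap and with a log2 fold change of 2.0 ± 2.30, while the 3NC and 5NC libraries ran from 16.2 to 158701 CPM. miR-211, which has the seed of miR-204, had 851 and 1542 CPM under overexpression, against 0 and 98.6 CPM under knockdown. miR-423-3p was steadier, at 29086 and 37976 CPM under overexpression, against 10087 and 13391 CPM under knockdown, and a log2 fold change of 1.51 ± 0.79. The feature shared by miR-92a-3p and miR-92b had 24464 and 27403 CPM, against 10719 and 19021 CPM, at 0.80 ± 0.74, and -0.69 with miRNA totals.

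Of the 317 mature miRNAs, 9 had reads in both overexpression libraries and none in either knockdown library, and 1 had the reverse. The overexpression libraries held 3240968 and 192020 mature reads, against 104638 and 62292 in the knockdown libraries. The part of this depth in the uneven count was not tested, and 4 of the 9 had at most 17 reads in the larger library. miR-767 had 750 and 57 reads, or 344 and 158 CPM, in the overexpression libraries, against 0 and 0 reads in the knockdown libraries. Against the floor of 3 reads in each knockdown library it was at least 21.3-fold higher, or 13.4-fold without overexpression library 1, with an adjusted p of 0.51 in edgeR and 0.035 in DESeq2, and the 3NC and 5NC libraries reached only 8.70 CPM. The hairpin row of miR-767 had 574 and 58 reads under overexpression, against 0 and 0 reads under knockdown, so both rows of this miRNA point the same way. Whether the hairpin row also counts mature reads is not given, so the rows may not be independent. In human, miR-767 is encoded beside miR-105, and the goat miR-105 rows, looked up after these values were seen, had reads with overexpression and none with knockdown. The mature rows miR-105a and miR-105b-5p had 10 and 0 and 19 and 0 reads in overexpression libraries 1 and 2, against 0 reads in the knockdown, 3NC and 5NC libraries. Their hairpin rows had 9 and 11 reads for miR-105a and 26 and 8 reads for miR-105b under overexpression, against 0 under knockdown.

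miR-146a, which is induced by NF-kappa B and dampens inflammation, had 509 and 14 mature reads under overexpression, against 0 and 0 under knockdown, and was at least 11.5-fold higher against the floor, a bound that was 3.29-fold without overexpression library 1. Its hairpin row did not follow, with 323 and 64 reads under overexpression, against 354 and 69 reads under knockdown, and with mature and hairpin reads summed the log2 fold change was -1.53. The remaining 7 of the 9 were miR-1271-5p, miR-136-3p, miR-1388-3p, miR-1468-5p, miR-2332, miR-323a-3p and miR-3431-3p. They had 1 to 81 reads in overexpression library 1 and 1 to 6 in library 2, and 3 of them passed the floor far enough for a lower bound of 1.73-fold to 2.28-fold, which without overexpression library 1 was 1.41-fold for miR-1468-5p and could not be given for miR-1388-3p and miR-3431-3p. 8 of the 9 miRNAs absent from the knockdown libraries also had 0 reads in the deeply read 5NC library 1, miR-323a-3p being the exception. In the reverse direction, miR-582-5p had 0 and 0 reads under overexpression, against 4 and 3 reads under knockdown, and was at least 2.80-fold lower.

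**Figure D3:**
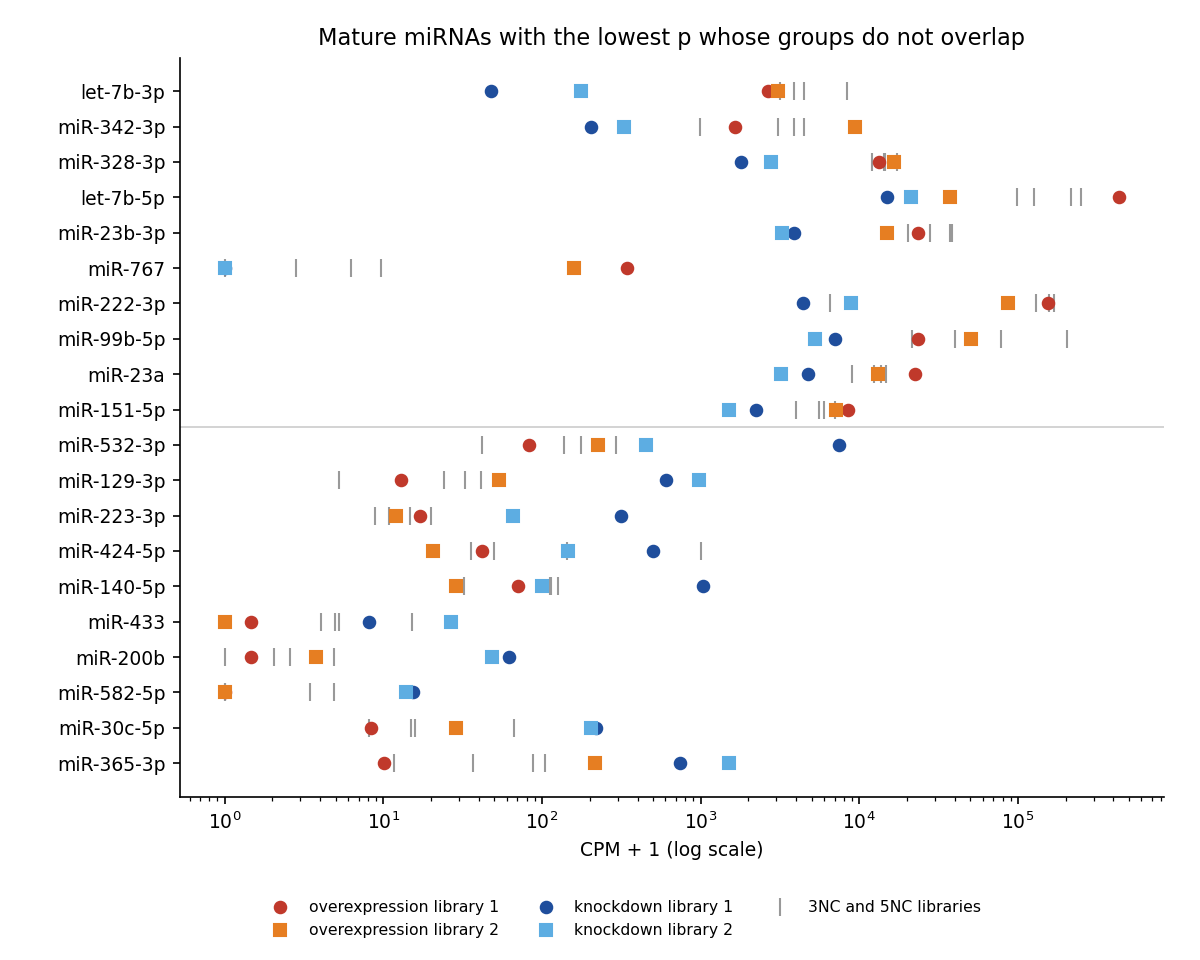
CPM plus 1 on a log axis for the 10 higher (top) and 10 lower (bottom) mature miRNAs with the lowest p among those whose groups do not overlap, with 1 marker for each overexpression and knockdown library and grey ticks for the 4 3NC and 5NC libraries. The knockdown libraries of let-7b-3p, miR-328-3p and miR-23b-3p lie left of all grey ticks, and those of miR-129-3p, miR-30c-5p and miR-365-3p lie right of them.

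Of the named miRNAs that were lower with overexpression, miR-129-3p and miR-532-3p had the lowest p. miR-129-3p had 11.9 and 52.7 CPM in the overexpression libraries, against 607 and 969 CPM in the knockdown libraries, from 26 and 19 reads, against 170 and 226 reads. Both knockdown libraries were above the 3NC and 5NC range of 4.24 to 40.1 CPM, and the log2 fold change was -4.62 ± 1.66 with an adjusted p of 0.52 in edgeR and 0.035 in DESeq2. miR-532-3p had 82 and 225 CPM under overexpression, against 7434 and 450.2 CPM under knockdown, a log2 fold change of -4.69 ± 1.66 that was -1.55 without knockdown library 1, the highest of the 4. The strand from the other arm did not share this in either hairpin. miR-129-5p had 199 and 519 CPM under overexpression, against 225 and 257 CPM under knockdown, with overlapping groups. miR-532-5p had 5739.5 and 1600.4 CPM, against 957 and 279 CPM, higher with overexpression without overlap, at a log2 fold change of 2.57 ± 1.11.

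The miR-30 family, widely expressed in epithelial and muscle tissue, had 8 tested strands, of which none passed, 1 was higher and 7 lower with overexpression, and 5 did not overlap downward. Its median log2 fold change was -1.11, which turned to 0.40 with named-RNA totals, and its summed level was 252 and 433 CPM, against 1393 and 1076 CPM under knockdown and 224 to 1049 CPM in the 3NC and 5NC libraries. miR-30c-5p had 7.33 and 27.7 CPM under overexpression, against 218 and 202 CPM under knockdown, a log2 fold change of -3.60 ± 1.77. The knockdown libraries lay close together and above all others, and miR-30c-5p stayed lower with overexpression in all 4 scalings. miR-30a-5p had 46.7 and 66.6 CPM, against 403 and 292 CPM, at -2.62 ± 1.45, which was 0.01 with mature and hairpin reads summed. miR-30b-5p had 136 and 269 CPM, against 646 and 437 CPM, at -1.42 ± 1.25. miR-365-3p had 9.16 and 214 CPM under overexpression, against 739 and 1509 CPM under knockdown, at -3.34 ± 1.70, with overexpression library 2 nearer to the knockdown libraries than library 1 was.

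Others of the lower set rested on few reads or on knockdown library 1. miR-424-5p, of the miR-15 and miR-16 seed family, had 40.8 and 19.4 CPM under overexpression, against 503 and 146 CPM under knockdown. miR-140-5p, known from cartilage, had 69.2 and 27.7 CPM, against 1039 and 98.6 CPM, and miR-223-3p, a myeloid miRNA, had 16 and 11.1 CPM, against 314 and 64.3 CPM. In all 3, knockdown library 1 was more than 3 times knockdown library 2. miR-200b had 1 and 1 reads under overexpression, against 17 and 11 reads under knockdown, and miR-433 had 1 and 0 reads, against 2 and 6 reads, so neither is given a fold.

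Markers of the cell types that such a culture could hold were read as lists, and none of their members passed the edgeR test. In bulk samples, fewer cells of a type and less of a miRNA per cell cannot be told apart. The labelled tissue is mammary gland, but the 5 members of the epithelial miR-200 family summed to only 35.7 and 230.2 CPM in the overexpression libraries, against 382 and 172 CPM in the knockdown libraries and 15.8 to 62.3 CPM in the 3NC and 5NC libraries. The family's median log2 fold change was -0.63, or 0.10 with named-RNA totals. miR-200a and miR-429 had 0 reads in overexpression library 1. miR-183, miR-96 and miR-182, a further epithelial cluster, summed to 99.9 and 72.1 CPM, against 96.4 and 214 CPM under knockdown. The 3NC and 5NC libraries ran from 75.9 to 13093 CPM there, highest in 5NC library 1. Of the 3, 2 did not overlap downward (median log2 fold change -0.76, or 1.6 with named-RNA totals). Mesenchymal miRNAs were abundant in comparison in these 4 libraries, with 35329 and 10096 CPM summed over 8 tested strands under overexpression, against 43827 and 19086 CPM under knockdown. In the 3NC and 5NC libraries their sum ran from 464 to 34898 CPM. It was lowest in 5NC library 1, where it was below that of the miR-183 cluster. 2 of the 8 were higher and 6 lower with overexpression, 3 of them not overlapping downward, and the median log2 fold change was -0.90, or 0.58 with named-RNA totals. miR-145-5p, the smooth muscle miRNA, had 310.2 and 3369.9 CPM, against 9027 and 11024 CPM, while miR-143-3p from the same cluster had 17658 and 4227 CPM, against 21392 and 2942 CPM, with overlapping groups. The feature shared by miR-199a-3p, miR-199b-3p and miR-199c-3p had 16606 and 1903 CPM, against 10016 and 3863 CPM, also overlapping.

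Markers of muscle, endothelium, blood and liver differed widely between the libraries of a group. The 5 tested muscle miRNAs summed to 149 and 1173 CPM under overexpression, against 114 and 7808 CPM under knockdown and 21.5 to 1231 CPM in the 3NC and 5NC libraries. All 5 were lower with overexpression, none without overlap, at a median of -2.50, which was 2.27 without knockdown library 2 and 0.40 with named-RNA totals. miR-206, specific to skeletal muscle, had 0 and 48 reads under overexpression, against 0 and 193 reads under knockdown, so in these 2 groups it was read in library 2 alone. It had 0 and 172 reads in the 3NC libraries, but 48 and 0 reads in the 5NC libraries, the other way round. miR-1, miR-133a-3p, miR-133b, miR-122 and miR-126-3p, and miR-127-3p of the DLK1-DIO3 cluster, were higher in library 2 than in library 1 in all 4 groups, 3NC and 5NC included. They were among 15 of the 224 tested miRNAs (6.7%) that were so, while 20 (8.93%) were lower in library 2 in all 4 groups. In 5NC the gap was small for miR-126-3p, at 186 and 191 CPM from 526 and 314 reads. It was also small for miR-122, at 21.2 and 26.2 CPM from 60 and 43 reads, and wider for the others named. Whether a library number marks anything shared is not given, and its part in these differences was not tested. miR-122, the main liver miRNA, had 117 and 2305 CPM, against 814 and 10428 CPM, and its log2 fold change of -2.22 ± 1.94 became 0.57 without knockdown library 2. miR-126-3p, made in endothelium, had 451 and 6768 CPM under overexpression, against 9541 and 11084 CPM under knockdown, and 3 of the 4 libraries were above the 3NC and 5NC range of 186 to 657 CPM. The blood miRNAs miR-150 and miR-451-5p had 55 and 1381 CPM and 279.9 and 2405 CPM under overexpression, against 1749.6 and 1329 CPM and 1589 and 3782 CPM under knockdown. All 3 tested blood strands were lower with overexpression, 1 without overlap (miR-223-3p), at a median of -1.10. Of the 5 tested liver and neural strands, 2 were higher and 3 lower, 1 not overlapping downward (miR-129-3p), at a median of -2.22, or 0.49 with named-RNA totals. Of the 4 libraries, overexpression library 1 had the lowest sum in the endothelial, blood, and liver and neural lists, and knockdown library 1 in the muscle list. The part of such cells or RNA in the differences between groups was not tested.

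**Figure D4:**
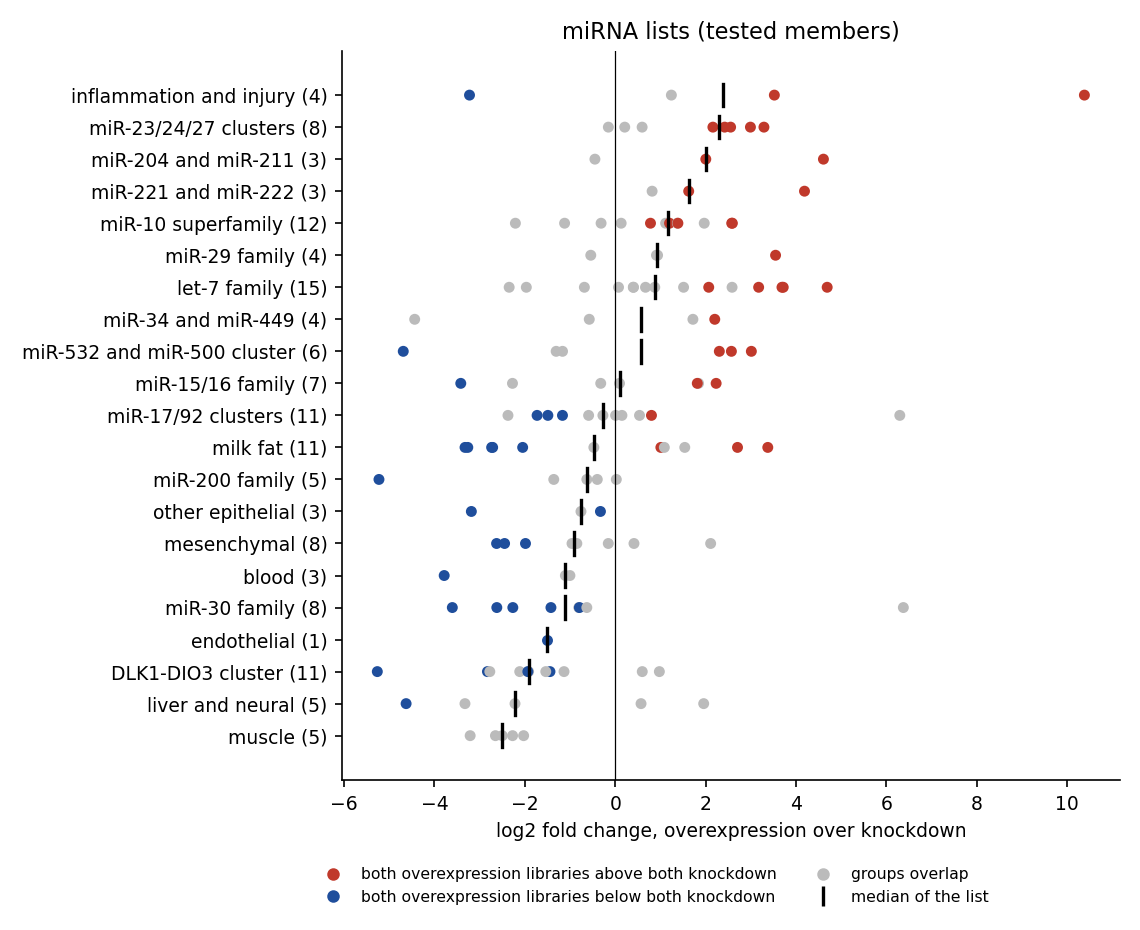
Each point is a tested mature miRNA placed by its log2 fold change, overexpression over knockdown, in the lists it belongs to, with the number tested in brackets and a black bar at the median. The inflammation list and the miR-23, miR-24 and miR-27 clusters have the highest medians, 2.38 and 2.29, the muscle list has the lowest, -2.50, and most lists hold miRNAs on both sides of 0.

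The remaining lists held members on both sides. In the inflammation list 3 of 4 were higher and 1 lower, at a median of 2.38, which ran from 0.21 to 3.72 with each library left out in turn. miR-155-5p, made in activated immune cells, had 742 and 313 CPM under overexpression, against 10.7 and 81.5 CPM under knockdown. miR-146b-5p, singled out after its values were seen, had 8.25 and 2.77 CPM, against 53.6 and 55.7 CPM, on the other side from miR-146a. These values rest on 18 and 1 reads under overexpression, against 15 and 13 reads under knockdown. Of the 3 tested strands of miR-204 and miR-211, 2 did not overlap upward, at a median of 2.0. Of 11 tested miRNAs of the imprinted DLK1-DIO3 cluster, 2 were higher and 9 lower with overexpression, 4 without overlap, at a median of -1.92, which turned to 0.32 with named-RNA totals. miR-127-3p, its most abundant member, had 71.9 and 377 CPM, against 249.9 and 1441 CPM, and miR-411a-5p 12.8 and 27.7 CPM, against 89.3 and 64.3 CPM. Of 11 tested strands of the miR-17/92 clusters, which promote proliferation, 5 were higher and 6 lower, with 1 not overlapping upward and 3 downward (median -0.27, or 1.22 with named-RNA totals). The 3 downward ones were miR-18a-5p, miR-19b-3p and miR-20a-5p, with at most 89 reads in a library. Of 11 tested milk fat miRNAs, 5 were higher and 6 lower, with 3 and 5 not overlapping (median -0.47, or 1.39 with named-RNA totals). There, miR-181b-5p had 1359 and 1312 CPM under overexpression, against 743 and 583 CPM under knockdown, with a log2 fold change of 1.01 that turned to -0.46 with miRNA totals. miR-103-3p, which acts in fat metabolism, had 19.7 and 2.77 CPM, against 204 and 21.4 CPM, from 43 and 1 reads, against 57 and 5 reads. The miR-15/16 family had 4 of 7 tested strands higher and 3 lower (median 0.10, or -0.14 with size factors), and miR-16a-5p had 3335 and 1187 CPM, against 246 and 716 CPM, without overlap. The miR-29 family, which targets collagen mRNAs, had 3 of 4 higher (median 0.93), and miR-29a-3p had 2699 and 5969 CPM, against 2939 and 1587 CPM, with overlap. The miR-34 and miR-449 family had 2 of 4 higher (median 0.57), and miR-34b-3p had 66 and 294 CPM, against 39.3 and 38.6 CPM, without overlap. In the miR-532 and miR-500 cluster, 3 of 6 were higher, all without overlap, and 3 lower, 1 without overlap (median 0.57). With miRNA totals the median was below 0 in all of these lists but those of inflammation and of miR-204 and miR-211.

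The 2 strands of a hairpin can be compared within a library, so that the scaling of the library drops out. This comparison was added after the values were seen. Of 91 hairpins with both strands in the table, 44 had at least 20 reads of both strands together in each of the 4 libraries. The share of the 3p strand did not overlap in 13 of them: it was higher with overexpression in 8 (18.2%) and lower in 5 (11.4%). In limma's test of the log2 ratio of 3p to 5p reads, none passed after Benjamini-Hochberg adjustment (0% called, lowest adjusted p 0.070, 4 of 44 under an unadjusted p of 0.05).

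In miR-129, which is best known from brain, the 3p strand made up 5.65% of 460 reads and 9.22% of 206 reads in the overexpression libraries, against 73% of 233 and 79% of 286 reads in the knockdown libraries. The exact 95% binomial intervals were 3.73% to 8.17% and 5.64% to 14% under overexpression, against 66.8% to 78.6% and 73.8% to 83.6% under knockdown. The knockdown libraries thus held mostly the 3p strand and the overexpression libraries mostly the 5p strand, as did the 3NC and 5NC libraries at 1.85% to 5.14%. The log2 ratio differed by -5.32 ± 1.32 (SE), with an adjusted p of 0.07 in limma. In miR-532, the 3p strand made up 1.41% of 12707 and 12.3% of 658 reads under overexpression, against 88.6% of 2350 and 61.8% of 170 reads under knockdown, and 1.01% to 10.8% in the 3NC and 5NC libraries. Again the knockdown libraries alone held mostly the 3p strand, at a log2 ratio difference of -6.30 ± 1.61 and an adjusted p of 0.07 in limma. Leaving out either 5NC library left both log2 ratio differences as they were, since 5NC is not part of the contrast, and changed only the estimate of the spread. The adjusted p of both hairpins depends on that estimate, and so on how far apart the 5NC libraries lie.

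let-7d went the other way. Its 3p strand made up 48.4% of 7229 and 32% of 294 reads in the overexpression libraries, against 5.08% of 807 and 6.28% of 223 reads in the knockdown libraries. The 3NC and 5NC libraries lay at 27.7% to 65.6%, on the side of the overexpression libraries, and the log2 ratio differed by 3.44 ± 1.40 with an adjusted p of 0.38 in limma. Of the other hairpins without overlap, miR-191 had a larger difference of the log2 ratio, 3.71 ± 3.45, with 0 and 6 reads of its 3p strand in the knockdown libraries. The 3p share of miR-423 was 94.3% and 97.5% under overexpression, against 90.1% and 86.4% under knockdown, and that of miR-27a 93.2% and 91.8%, against 99.2% and 97.5%. Over all tested strands, 57 of 102 strands named 5p were higher with overexpression (median log2 fold change 0.31) and 42 of 86 named 3p (median -0.12), with the groups not overlapping upward in 30 and 22 and downward in 21 and 18.

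**Figure D5:**
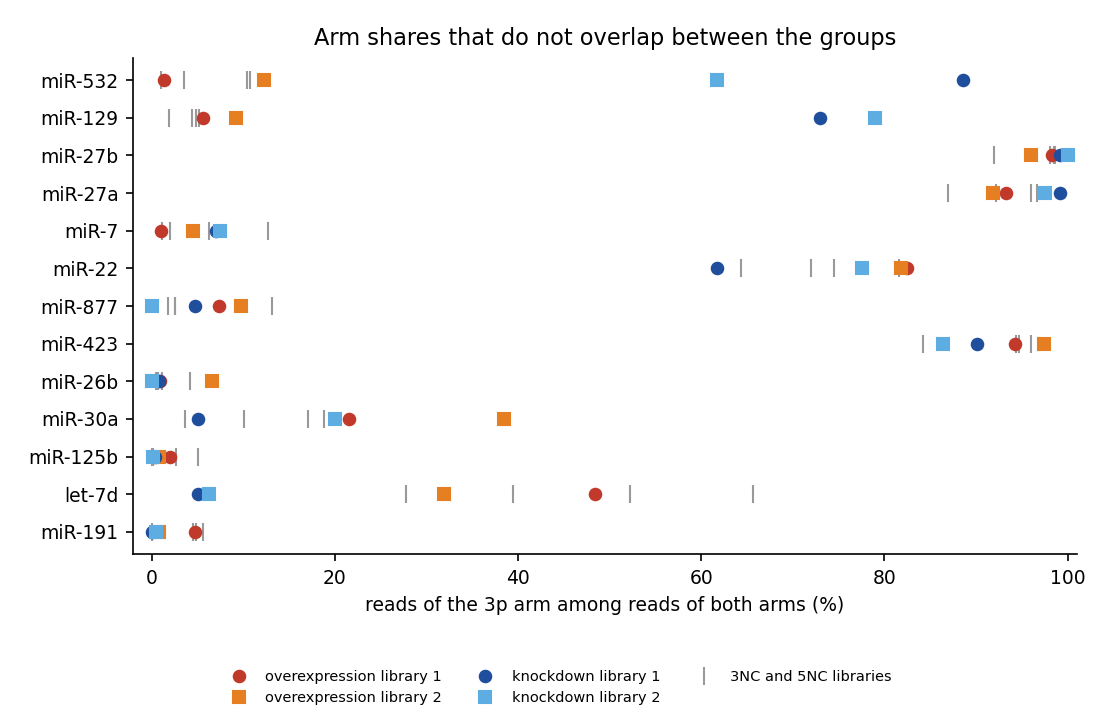
Share of the 3p strand among the reads of both strands of a hairpin, in percent, for the 13 of 44 hairpins whose overexpression and knockdown libraries do not overlap, with grey ticks for the 3NC and 5NC libraries. In miR-532 and miR-129 both knockdown libraries lie above 60% and all other libraries below 13%, and in let-7d both knockdown libraries lie below 7%.

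Neighbouring miRNA genes were compared because neighbours are often cut from a shared primary transcript. By the order of miRNA genes in RefSeq's goat annotation, with a gap of at most 10 kb, 29 clusters held at least 2 tested strands, and in 12 all strands lay on the same side of 0. Many clusters held only 2 or 3 strands, which can share a side easily, and no background count was computed. Over all tested miRNAs, 115 were higher and 109 lower. let-7a and let-7b, which neighbour each other, had all 4 strands higher with overexpression, at log2 fold changes of 3.69, 2.58, 4.69 and 3.72. All 3 strands of miR-30e and miR-30c were lower without overlap, at -2.26, -0.79 and -3.60. The middle value, of miR-30e-3p, rests on 16 and 3 reads under overexpression, against 4 and 3 reads under knockdown, and was 0.92 with named-RNA totals. In other clusters, neighbours lay on opposite sides without overlap between the groups on the TMM scale. miR-191-5p had 6610.4 and 11269 CPM under overexpression, against 3913 and 5218 CPM under knockdown, while miR-425-5p from the same cluster had 8.25 and 44.4 CPM, against 82.1 and 68.6 CPM. The log2 fold change of miR-191-5p was 0.97, and -0.42 with miRNA totals, and its groups overlapped there and with size factors. On the TMM scale, the feature of miR-92a-3p and miR-92b was higher without overlap, and the neighbours of miR-92a, namely miR-18a-5p, miR-19b-3p and miR-20a-5p, lower. With named-RNA totals these 3 turned to 0.18, 0.92 and 0.69. miR-224-5p, miR-3431-3p and miR-3431-5p, neighbours as well, were all higher without overlap, and miR-224-5p had 308 and 139 CPM under overexpression, against 25 and 34.3 CPM under knockdown, a log2 fold change of 2.91 ± 1.44. These clustered examples were singled out after their values were seen.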

How the data were processed

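The authors deposited a table with a raw read count and a TPM value per small RNA feature and library, per the file headers. The deposited TPM values carry no length term: for features with 1000 or more reads they lay within 0.0141% of the count scaled to a column sum of 1000000, and they had no further use here. No source used here gives the aligner, the counting rule or the genome build, so positions are not printed and reads shared within miRNA families are uncertain. Unnamed classes (exon, intron, intergenic, repeat), with 44.3% to 63.1% of a library's reads, stayed out of library sizes and tests. Hairpin rows held other counts than mature rows and were used as an alternative and, for single miRNAs, beside the mature rows. Whether reads of mature miRNAs are also counted in hairpin rows is not given.

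Counts of 317 known mature and 664 predicted miRNAs in 8 libraries of 4 groups were analysed in R 4.3.3 with edgeR 4.0.16: filterByExpr with a minimum count of 10, TMM factors (0.594 to 2.71), and the robust quasi-likelihood test with 4 residual degrees of freedom, for overexpression minus knockdown, two-sided, with Benjamini-Hochberg adjustment over 358 features (224 mature, 134 predicted) and a threshold of 0.05. The other groups were not in the contrast, but they entered the filter on low counts, the TMM factors and the estimate of the spread. The SE is the absolute log2 fold change divided by the square root of F, and is approximate. Arm ratios, log2 of reads plus 0.5, were tested with limma 3.58.1, and DESeq2 1.42.0 was an alternative. A fold against a group with no read was computed against 3 reads in each library. The fit was tested on simulated counts. Named miRNAs were, among tested ones, up to 10 per direction with the lowest p, at least 10 CPM in the higher group and no overlap, the 10 most abundant, and up to 3 per list by level. The members, the 21 lists and the rules were chosen with earlier results of these data known, and the lists are a description without a set test. Clusters came from the order of miRNA genes in RefSeq's ARS1.2 annotation, where 313 of the 317 names matched. Alternatives were 3 other scalings, other count minimums, the 4 libraries alone, thinned reads, hairpin reads added, a block on the replicate number and each library left out.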

Additional observations from a re-analysis of the deposited data

Results flagged for a closer look

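Features annotated as rRNA, which the comparison of miRNAs did not use, held 27.3% of the reads of knockdown library 1, against at most 4.89% in the 3NC and 5NC libraries. Features called piRNA held 43.9% of the reads of knockdown library 2, against at most 0.303% in the 3NC and 5NC libraries. Both shares lie above the level in the control libraries, each in a different knockdown library, and their part in the miRNA differences was not tested. With 2 libraries a group, no search for single outlying libraries within a group was possible.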

How the results depend on the processing

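Of 72 named miRNAs, 35 kept the direction of their log2 fold change under all alternatives run, miR-146a being turned only by adding hairpin reads. The test called 0 mature miRNAs, 3 with DESeq2 (let-7b-3p, miR-767 and miR-129-3p, adjusted p 0.035 each) and 2 in edgeR without a filter on low counts (let-7b-5p, adjusted p 0.035, and miR-222-3p, 0.027). The 58 miRNAs without overlap upward were 27 with miRNA totals, 34 with the 4 libraries alone and 34 with reads thinned to the smallest library. The 45 downward were 84 with miRNA totals and 7 with named-RNA totals. The median of 0.06 was -1.52 and 2.01 under these 2 scalings. Of the arm shares, 5 were higher without overlap at a minimum of 50 reads, against 8, and 11 were lower with hairpin reads added, against 5. With each library left out in turn, the test called 0 to 2, the miRNAs without overlap were 58 to 92 upward and 44 to 84 downward, the median was -0.50 to 0.58, the arm ratios called were 0 to 3, and the arm shares without overlap were 8 to 18 higher and 5 to 13 lower; the lone library of a group was then assumed to vary like the other groups. The direction turned with miRNA totals, to a log2 fold change of -1.15 for let-7c-5p, -0.036 for miR-125a-5p, -0.73 for miR-129-5p, -1.54 for miR-15b-5p, -0.46 for miR-181b-5p, -1.42 for miR-199a-3p/miR-199b-3p/miR-199c-3p, -1.23 for miR-200c, -0.59 for miR-21-5p, -0.91 for miR-221-3p, -1.14 for miR-25-3p, -0.79 for miR-26a-5p, -0.37 for miR-26b-5p, -1.55 for miR-27a-3p, -0.33 for miR-29a-3p, -0.69 for miR-29b-3p, -0.19 for miR-34a, -0.69 for miR-92a-3p/miR-92b, -1.05 for miR-93-5p and -0.75 for miR-99a-5p. With named-RNA totals it turned to 1.12 for miR-1, 0.15 for miR-122, 0.32 for miR-127-3p, 0.40 for miR-133a-3p, 1.34 for miR-143-3p, 1.6 for miR-182, 1.7 for miR-183, 2.86 for miR-204-3p, 0.66 for miR-369-5p, 0.54 for miR-451-5p and 0.32 for miR-96. It also turned with size factors, to -0.14 for miR-15b-5p and -0.034 for miR-200c, in DESeq2 to -0.14 for miR-15b-5p and -0.048 for miR-200c, with mature miRNAs alone in the fit to -0.027 for miR-200c, and at a minimum count of 50 to -0.027 for miR-200c. With mature and hairpin reads summed it was -1.53 for miR-146a, -0.14 for miR-16b-5p, -0.10 for miR-200c, 0.0083 for miR-30a-5p and 0.077 for miR-451-5p. Without a filter it was -0.30 for miR-15b-5p, -0.32 for miR-200c, -0.18 for miR-27a-3p and -0.19 for miR-93-5p. In the 4 libraries alone it was -0.43 for miR-15b-5p, -0.17 for miR-199a-3p/miR-199b-3p/miR-199c-3p, -0.26 for miR-200c, -0.31 for miR-27a-3p and -0.057 for miR-93-5p. With thinned reads it was -0.10 for miR-129-5p, -0.70 for miR-15b-5p, -0.26 for miR-199a-3p/miR-199b-3p/miR-199c-3p, -0.10 for miR-25-3p, -0.44 for miR-27a-3p and -0.066 for miR-93-5p. The labels do not say what a replicate number stands for, and deviations of same-numbered libraries correlated at 0.28, with 2 pairs too few to tell whether the numbers pair them; with a replicate block the test called 0, 58 and 45 miRNAs did not overlap and the median was 0.12, and the direction turned to -0.018 for miR-15b-5p and 1.33 for miR-204-3p. Among miRNAs that turned when a library was left out, the log2 fold change ran from -0.14 to 3.08 for let-7a-5p, -1.60 to 1.77 for let-7c-5p, -3.29 to 1.94 for miR-1, -6.01 to 0.57 for miR-122, -0.67 to 1.10 for miR-129-5p, -5.73 to 4.09 for miR-133a-3p, -8.83 to 2.27 for miR-133b, -1.53 to 1.90 for miR-143-3p, -0.50 to 0.24 for miR-15b-5p, -1.25 to 0.0092 for miR-183, -1.87 to 1.27 for miR-199a-3p/miR-199b-3p/miR-199c-3p, -1.03 to 0.83 for miR-200c, -1.52 to 8.26 for miR-204-3p, -2.36 to 4.74 for miR-21-5p, -0.11 to 0.98 for miR-221-3p, -0.35 to 0.82 for miR-25-3p, -0.53 to 1.62 for miR-26a-5p, -0.69 to 1.98 for miR-26b-5p, -1.72 to 1.79 for miR-27a-3p, -0.12 to 1.45 for miR-29a-3p, -1.43 to 2.29 for miR-34a, -2.74 to 1.14 for miR-34c-3p, -4.19 to 1.30 for miR-369-5p, -10.55 to 0.39 for miR-429 and -0.85 to 2.51 for miR-93-5p. The causes were not tested. Depth limits low values: 3 reads stand for 1.37 and 8.32 CPM under overexpression, against 10.7 and 12.9 CPM under knockdown.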
